A study of Mus musculus with 9 samples.

Results

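The 8 genes described here are those of copper and platinum transport: Slc31a1, Slc31a2, Atp7a, Atp7b, Atox1, Ccs, Lrrc8a and Lrrc8d. They were taken by symbol from a table of 23238 gene symbols, and all 8 were found. Of these, 7 passed the filter on low counts and were tested, and Atp7b did not. Their RNA was counted in gastrocnemius, a calf muscle, of female C57BL/6 mice whose age the labels give as 4 weeks, in 3 groups of 3 samples. Normal mice received 4 saline injections, one every other day, and water by mouth for 9 days. Cisplatin mice received 4 intraperitoneal injections of cisplatin at 3 mg/kg in saline on the same schedule, with the same water. RP mice received the same cisplatin and, by mouth on each of 9 days, 100 mg/kg of RP, which the sample labels do not spell out; the title of the series names an extract of Paeonia lactiflora. RP was given only together with cisplatin, so its action by itself and its action on the cisplatin response cannot be told apart. Libraries were made with QuantSeq, which reads the 3′ end of each transcript, so a count does not grow with transcript length. Levels of different genes are set side by side on this basis alone. Whether their 3′ ends are counted equally well was not tested.

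Copper enters cells mainly through the plasma membrane carrier SLC31A1 (CTR1), which has also been described as a route for cisplatin. Its relative SLC31A2 (CTR2) sits largely in late endosomes and lysosomes and modulates copper and platinum uptake. Inside the cell, the chaperone ATOX1 hands copper to the copper-exporting ATPases ATP7A and ATP7B, and the chaperone CCS delivers it to superoxide dismutase 1. Platinum drugs bind to several of these proteins. LRRC8A is the obligatory subunit of the volume-regulated anion channel, and channels that also contain LRRC8D pass cisplatin.

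Over the 9 libraries, total counts ran from 8196030 to 10678342, and values are given as CPM, the count per 1000000 counts of the library, after scaling by edgeR's trimmed mean of M values (TMM). Of the 12859 genes tested with edgeR's quasi-likelihood test, 54.5% were called when Cisplatin was set against Normal, 48.8% when RP was set against Cisplatin and 0.505% when it was set against Normal, at an adjusted p (Benjamini-Hochberg over all genes tested) under 0.05. The groups did not overlap for 62.2%, 56.8% and 19.2% of them. The comparisons share groups, and Cisplatin is the common arm of the first pair. Whether the samples are from separate mice is not stated in the labels, and p-values reflect only sample-to-sample spread, which may be technical. Muscle fibre markers (Ckm, Acta1, Mylpf, Tnnt3) were counted in every group and summed to 59300 to 65360 CPM in Normal, 38470 to 43080 CPM in Cisplatin and 60230 to 70960 in RP. These markers split: Ckm, Acta1 and Mylpf fell in Cisplatin against Normal. Tnnt3 was not called there, at 0.35 on the log2 scale (adjusted p = 0.105, edgeR), with each Cisplatin library above each Normal one. Summed fibroblast markers ran from 2349 to 2959 CPM in Normal, 306.1 to 717.2 CPM in Cisplatin and 1743 to 2385 in RP. Macrophage markers ran from 115.8 to 153.3, 8.92 to 32.1 and 48.0 to 78.7 CPM, in the same order of groups. Erythroid markers summed to 4114 to 8894 CPM in Normal, 34.0 to 60.3 CPM in Cisplatin and 64.1 to 405.2 in RP, and the tendon marker Kera had no count in Cisplatin. Kidney tubule markers, from the organ in which cisplatin transport is best known, reached 0.483 CPM at most. The part that these shifts play in the values of the 8 genes was not tested. In whole muscle, fewer cells of a type and less RNA per cell cannot be told apart.

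The promoters shown are those of the uptake pair and of Atp7a. Slc31a2 was called in Cisplatin against Normal, and Slc31a1 and Atp7a were called in no comparison. The promoter of the metallothionein gene Mt2, which rose most of the metal-binding genes followed here, is given for comparison. Each window runs from 250 bases before to 50 after the gene's start in RefSeq (GRCm38.p6), 5′ to 3′ on the gene's strand, all of them plus. Capitals mark the core of the metal response element, which the zinc-sensing factor MTF1 binds, searched as TGCGCNC and TGCACNC on both strands. In each of these 4 windows no match shares bases with another.
Slc31a1, chr4:62360451-62360750: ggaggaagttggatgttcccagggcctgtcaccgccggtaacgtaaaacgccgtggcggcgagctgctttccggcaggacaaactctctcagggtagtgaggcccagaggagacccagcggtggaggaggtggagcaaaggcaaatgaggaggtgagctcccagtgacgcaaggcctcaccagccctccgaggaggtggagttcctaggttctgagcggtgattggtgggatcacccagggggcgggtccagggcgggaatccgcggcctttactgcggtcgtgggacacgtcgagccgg
Slc31a2, chr4:62286179-62286478: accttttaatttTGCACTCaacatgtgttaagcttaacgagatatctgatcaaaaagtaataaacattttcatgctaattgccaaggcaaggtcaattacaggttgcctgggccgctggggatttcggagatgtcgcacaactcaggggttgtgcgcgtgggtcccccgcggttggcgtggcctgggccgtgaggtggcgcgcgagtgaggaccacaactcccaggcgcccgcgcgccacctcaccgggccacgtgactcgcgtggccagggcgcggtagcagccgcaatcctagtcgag
Atp7a, chrX:106026974-106027273: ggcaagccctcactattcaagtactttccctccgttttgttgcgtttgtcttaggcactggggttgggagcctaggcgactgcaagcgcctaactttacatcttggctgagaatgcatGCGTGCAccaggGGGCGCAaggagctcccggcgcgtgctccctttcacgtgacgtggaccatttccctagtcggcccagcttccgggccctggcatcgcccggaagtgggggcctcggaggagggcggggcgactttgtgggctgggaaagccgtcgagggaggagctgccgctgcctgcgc
Mt2, chr8:94172368-94172667: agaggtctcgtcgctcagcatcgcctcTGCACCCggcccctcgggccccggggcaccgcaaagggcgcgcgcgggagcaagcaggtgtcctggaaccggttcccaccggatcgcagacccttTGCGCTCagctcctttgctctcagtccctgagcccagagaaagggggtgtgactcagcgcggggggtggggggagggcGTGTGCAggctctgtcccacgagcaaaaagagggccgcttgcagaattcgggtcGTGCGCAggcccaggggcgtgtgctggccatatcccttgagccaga
Slc31a1 had no match to the core, Slc31a2 had 1, Atp7a had 2 and Mt2 had 4. Mt1 and Sod1, which also rose in Cisplatin, had 3 and 0 in windows not shown. The Slc31a2 match, TGCACTC, lay 238 to 232 bases before the start. A match occurred in 25.7% of 32851 windows of this length in the RefSeq table. Windows were found for 7 of the 8 genes, Ccs being the other, and the genes with at least 1 match were Slc31a2, Atp7a, Atp7b and Lrrc8d, or 4 of 7. Lrrc8d has 2 windows, and only the downstream one held matches, 3 of them. By window, the unit of the 25.7%, 4 of 8 held a match. The GC box (GGGCGG, both strands), the sequence bound by SP1, occurred 2 times in the Slc31a1 window and 0 times in that of Slc31a2, and 35.7% of all windows held at least 1. These matches describe letters in a window, not bound sites.

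Levels of the 8 genes stood in the same order of group means in Normal, Cisplatin and RP: Lrrc8a, Atox1, Atp7a, Slc31a1, Ccs, Slc31a2, Lrrc8d and Atp7b. In TMM-scaled CPM, means in Normal ran from 34.8 for Lrrc8a down to 4.54 for Lrrc8d, with Atp7b near 0. In Normal and Cisplatin, the ranges of the 3 libraries overlapped between Lrrc8a and Atox1 and between Slc31a1 and Ccs, and other neighbours were separate. In RP, Atp7a overlapped Slc31a1, and Slc31a1 overlapped Ccs.

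**Figure D1:**
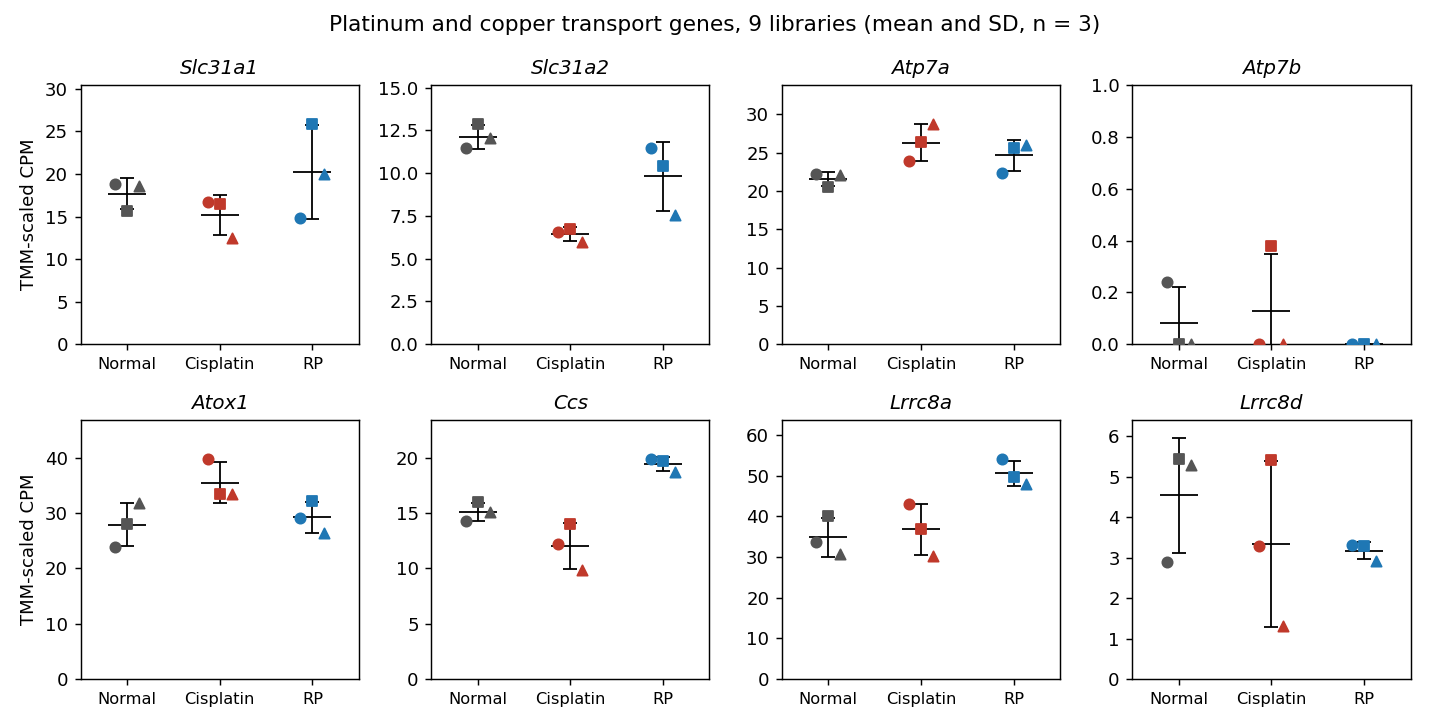
TMM-scaled CPM of the 8 genes in each of the 3 libraries of Normal, Cisplatin and RP, with the mean and SD of each group. Slc31a2 is at 5.95 to 6.75 CPM in Cisplatin, below each Normal library, and Ccs and Lrrc8a stand highest in RP.

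Of the 7 tested genes, 1 was called in Cisplatin against Normal, Slc31a2, which fell. In TMM-scaled CPM it was at 11.5, 12.8 and 12.0 in Normal, 6.58, 6.75 and 5.95 in Cisplatin, and 11.5, 10.4 and 7.57 in RP. Every Cisplatin library lay below every Normal and every RP library, and RP replicate 3 was the lowest of its group. The group means were 12.1 ± 0.684, 6.43 ± 0.422 and 9.82 ± 2.02 CPM (SD, n = 3 each). Slc31a2 fell 1.88-fold in Cisplatin, by 0.91 ± 0.22 (SE) on the log2 scale (adjusted p = 0.00284, edgeR). In RP it rose against Cisplatin by 0.61 ± 0.22 (adjusted p = 0.0314). That rise was no longer called in 5 of the 9 fits that each left out 1 library, those without any 1 Cisplatin library (adjusted p = 0.0588, 0.0573 and 0.0857 for replicates 1, 2 and 3) and without RP replicate 1 (0.120) or 2 (0.0859). It was also lost when the 2 compared groups were fitted alone (adjusted p = 0.0532) and with no filter on low counts (0.0556). Against Normal the RP value differed by -0.30 ± 0.21 (adjusted p = 0.583, 95% interval -0.75 to 0.15). The gene lies on chromosome 4 at 62262562 to 62298411 on the plus strand (GENCODE M21, GRCm38), where the window shown above lies inside its longest transcript span.

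Slc31a1, the main copper importer, lies near Slc31a2 at 62360727 to 62391769 on the same strand of chromosome 4, and was called in none of the 3 comparisons. Its TMM-scaled CPM was 18.8, 15.6 and 18.7 in Normal, 16.7, 16.4 and 12.5 in Cisplatin, and 14.8, 25.8 and 20.0 in RP. The 3 groups overlapped, with RP replicate 2 the highest library and Cisplatin replicate 3 the lowest. Differences on the log2 scale were -0.22 ± 0.21 in Cisplatin against Normal (adjusted p = 0.410, 95% interval -0.67 to 0.24) and 0.41 ± 0.21 in RP against Cisplatin (adjusted p = 0.123, interval -0.04 to 0.86). The latter difference was called without RP replicate 1, at 0.59 (adjusted p = 0.0345). The value in RP against Normal was 0.19 (adjusted p = 0.758, interval -0.26 to 0.64).

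Hepatocyte markers (Alb, Apoa1, Ttr, Serpina1a) were counted in every group, and their summed CPM was 590.4, 239.1 and 636.8 in Normal, 320.1, 403.1 and 109.9 in Cisplatin, and 600.4, 1035 and 324.0 in RP. The highest and the lowest library by this sum, RP replicate 2 and Cisplatin replicate 3, are also the highest and the lowest by Slc31a1. Cisplatin replicate 3 was the lowest by the summed fibroblast and macrophage markers too (306.1 and 8.92 CPM). RP replicate 1 stood at rank 3 of 9 by the sum but at rank 8 by Slc31a1. Among the 9078 named genes searched, the pattern over the 9 libraries closest to that of Slc31a1 was that of C8a (Pearson r = 0.919, on the log2 scale). C8a is a complement component made mainly in liver. Vkorc1l1 followed (0.899). The part of liver-type RNA in the Slc31a1 values was not tested.

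**Figure D2:**
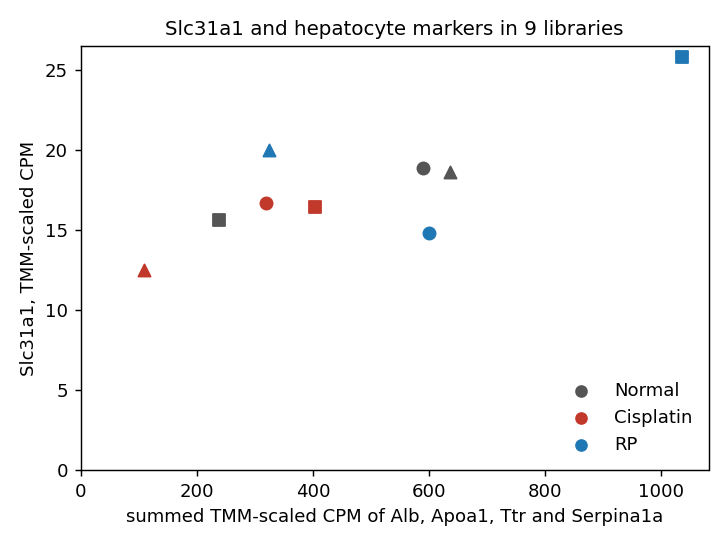
Slc31a1 (TMM-scaled CPM) against the summed TMM-scaled CPM of 4 hepatocyte markers, 1 point per library; circles, squares and triangles are replicates 1, 2 and 3. RP replicate 2 is highest on both axes and Cisplatin replicate 3 lowest, while the other 7 libraries show no clear order.

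Cdc26, a gene of the anaphase-promoting complex on the opposite strand, overlaps the 3′ part of Slc31a1, although the 3′ end of each lies in no exon of the other. The sources used here do not state the strand setting of the counting, so reads of the pair could be mixed. In TMM-scaled CPM Cdc26 was at 16.3, 13.4 and 12.9 in Normal, 22.7, 21.5 and 29.4 in Cisplatin, and 22.4, 20.9 and 15.9 in RP. Each Cisplatin library was above each Normal library. Cdc26 rose in Cisplatin against Normal by 0.79 ± 0.19 (adjusted p = 0.0033, edgeR), opposite in sign to the Slc31a1 value.

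Within each library the count of Slc31a1 was divided by that of Slc31a2, a ratio that needs no scaling between libraries. The ratio was 1.64, 1.22 and 1.55 in Normal, 2.54, 2.44 and 2.10 in Cisplatin, and 1.29, 2.48 and 2.64 in RP. All Cisplatin libraries exceeded all Normal ones, and RP split, with replicate 1 among the Normal values and the others at 2.48 or above.

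The chaperones Atox1 and Ccs carried opposite signs in both comparisons with Cisplatin. In TMM-scaled CPM, Ccs was at 14.3, 16.0 and 15.0 in Normal, 12.2, 14.0 and 9.87 in Cisplatin, and 19.8, 19.7 and 18.7 in RP. The RP libraries lay above all others and the Cisplatin libraries below all others. Ccs rose in RP against Cisplatin by 0.69 ± 0.17 on the log2 scale (adjusted p = 0.00509, edgeR), from 12.0 ± 2.06 to 19.4 ± 0.636 CPM, and this call held in all 18 alternatives (adjusted p = 0.00283 to 0.0228). In Cisplatin against Normal it differed by -0.32 ± 0.18 (adjusted p = 0.134, 95% interval -0.70 to 0.05). RP against Normal gave 0.36 ± 0.17 (adjusted p = 0.399), so the separation of those libraries did not pass the test over all genes. Ccs lies on chromosome 19 at 4825366 to 4839332, minus strand.

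Atox1, which supplies the copper ATPases, was at 23.9, 28.0 and 31.8 TMM-scaled CPM in Normal, 39.7, 33.4 and 33.4 in Cisplatin, and 29.1, 32.1 and 26.4 in RP. Cisplatin libraries were above both other groups on this scale, though not with CPM from library size alone, where the groups overlapped. The difference in Cisplatin against Normal was 0.35 ± 0.15 (adjusted p = 0.0703, edgeR, 95% interval 0.02 to 0.68). Without Normal replicate 3 it was called, at 0.47 (adjusted p = 0.0391). In RP against Cisplatin Atox1 differed by -0.28 ± 0.15 (adjusted p = 0.144), and RP and Normal were close, at 0.07 (adjusted p = 0.901). Atox1 lies on chromosome 11 at 55446641 to 55461239, minus strand.

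The ratio of Atox1 to Ccs counts was 1.68, 1.75 and 2.11 in Normal, 3.25, 2.39 and 3.39 in Cisplatin, and 1.47, 1.63 and 1.42 in RP. Cisplatin libraries were above all others, and each RP library was below each Normal library. How often the ratios of other gene pairs separate in this way was not tested. Sod1, the superoxide dismutase that CCS loads with copper, rose from 468 ± 64.6 to 1562 ± 220 CPM in Cisplatin, by 1.74 ± 0.16 on the log2 scale (adjusted p = 1.16e-06, edgeR), and fell in RP against Cisplatin by 1.41 ± 0.15 to 588 ± 50.8 CPM (adjusted p = 1.00e-05). There were 31.1, 33.9 and 27.8 Sod1 counts per Ccs count in Normal, 129, 95.6 and 180 in Cisplatin, and 32.1, 27.2 and 31.8 in RP. Each Cisplatin ratio was above both other groups, and the Normal and RP ratios overlapped.

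**Figure D3:**
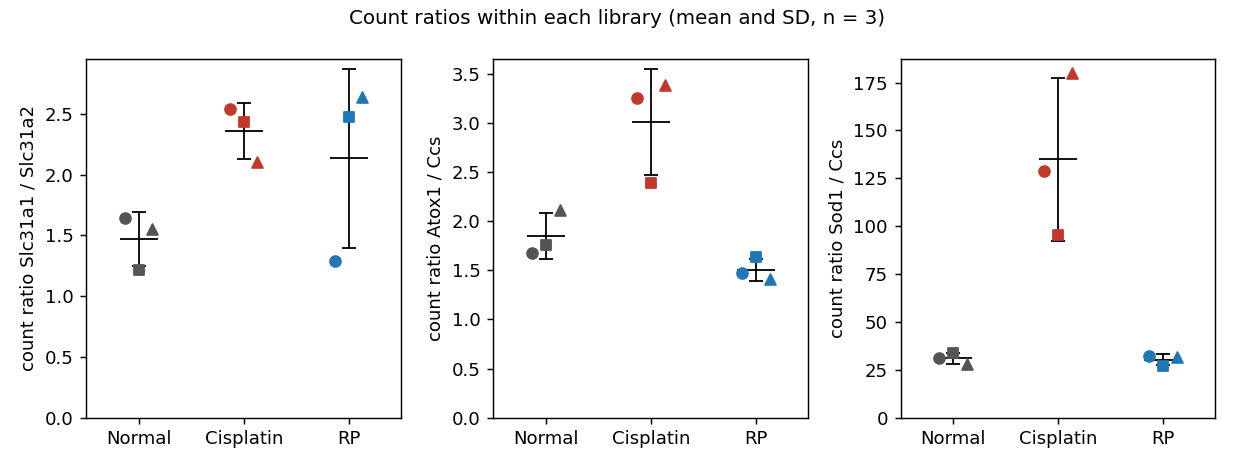
Ratios of counts within each library for Slc31a1 to Slc31a2, Atox1 to Ccs and Sod1 to Ccs, with the mean and SD of 3 libraries per group; circles, squares and triangles are replicates 1, 2 and 3. Cisplatin libraries are above Normal in each panel, and RP overlaps Normal for Slc31a1 to Slc31a2 and for Sod1 to Ccs.

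Of the copper-exporting ATPases, Atp7a was called in no comparison and Atp7b, which did not pass the filter, was not tested. Atp7a, the form expressed in most tissues, was at 22.2, 20.5 and 22.0 TMM-scaled CPM in Normal, 23.9, 26.3 and 28.7 in Cisplatin, and 22.3, 25.6 and 25.9 in RP. Every Cisplatin and RP library was above every Normal one, by a narrow margin in RP. Differences were 0.29 ± 0.15 in Cisplatin against Normal (adjusted p = 0.113, edgeR, 95% interval -0.03 to 0.60), -0.09 ± 0.14 in RP against Cisplatin (adjusted p = 0.615) and 0.19 in RP against Normal (adjusted p = 0.622). With library size as the only scaling the second turned to 0.06. Atp7a lies on chromosome X at 106027276 to 106124926, plus strand.

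Atp7b, the liver form that loads caeruloplasmin and exports copper into bile, had 6 counts in all 9 libraries: 2 in Normal replicate 1 and 4 in Cisplatin replicate 2. Normal and Cisplatin held 2 and 4 counts over the group and RP 0, and a count of 0 allows up to 0.106 CPM over the RP group (3 counts, counting error only). Counts of this size support no comparison between the groups. Atp7b lies on chromosome 8 at 21992785 to 22060305, minus strand.

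Lrrc8a, the required channel subunit, was highest in RP. Its TMM-scaled CPM was 33.7, 40.0 and 30.8 in Normal, 43.0, 37.0 and 30.3 in Cisplatin, and 54.1, 49.8 and 47.9 in RP. The RP libraries were above all 6 others, while Normal and Cisplatin overlapped throughout. Lrrc8a rose in RP against Cisplatin by 0.46 ± 0.16 on the log2 scale (adjusted p = 0.0253, edgeR), from 36.8 ± 6.34 to 50.6 ± 3.15 CPM. That call was lost without Cisplatin replicate 2 (adjusted p = 0.0606), without Cisplatin replicate 3 (0.103) and without RP replicate 1 (0.0845). The difference in RP against Normal was 0.54 ± 0.16, with an unadjusted p of 0.00411 that did not pass over all genes (adjusted p = 0.169). Cisplatin and Normal differed by 0.08 ± 0.16 (adjusted p = 0.699, 95% interval -0.26 to 0.42). Lrrc8a lies on chromosome 2 at 30237715 to 30263790, plus strand; its 3′ end falls within Gm28035, a longer gene model on the same strand for which no count is used here.

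Lrrc8d, the subunit tied to cisplatin passage, was counted 11 to 57 times per library. Its TMM-scaled CPM was 2.90, 5.43 and 5.29 in Normal, 3.29, 5.42 and 1.31 in Cisplatin, and 3.31, 3.28 and 2.93 in RP. The 3 groups overlapped, and the Cisplatin libraries, at 28, 57 and 11 counts, covered almost the whole range. Cisplatin against Normal gave -0.43 ± 0.44 (adjusted p = 0.432, edgeR, 95% interval -1.37 to 0.52), a range that holds a fall and a rise. In RP the values were -0.09 ± 0.44 against Cisplatin (adjusted p = 0.878), a sign that turned under 4 alternatives, and -0.52 ± 0.44 against Normal (adjusted p = 0.665). Lrrc8d lies on chromosome 5 at 105699969 to 105832436, plus strand. Of its fellow subunits, Lrrc8b and Lrrc8e had 5 and 10 counts over all libraries and did not pass the filter. Lrrc8c was at 2.61 ± 0.717 CPM in Normal, 2.30 ± 1.72 in Cisplatin and 2.75 ± 1.44 in RP and was not called in any comparison.

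Counting the genes together, 1 of the 7 tested fell and 0 rose in Cisplatin against Normal, where 28.2% of all genes fell and 26.3% rose. In RP against Cisplatin 3 of 7 rose (Slc31a2, Ccs and Lrrc8a) and 0 fell, where 24.6% of all genes rose and 24.2% fell. In RP against Normal, where 0.187% of all genes rose and 0.319% fell, 0 of 7 were called by edgeR, DESeq2 also called 0, and 1 (Lrrc8a) had an unadjusted p under 0.05, as did 12.8% of all genes. At that unadjusted threshold stood 2 of 7 in Cisplatin against Normal and 3 of 7 in RP against Cisplatin, beside 59.8% and 55.4% of all genes. The median log2 difference of the 7 was -0.22, 0.41 and 0.19 in the 3 comparisons, beside -0.08, 0.07 and -0.01 for all genes tested. Groups did not overlap for 4 of 7 genes in each comparison, beside 62.2%, 56.8% and 19.2% of all genes. With CPM from library size alone the count was 3 of 7 in each, beside 61.1%, 56.1% and 21.2%. The Slc31a2 ranges of RP and Normal met to within rounding, at 11.5 CPM.

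**Figure D4:**
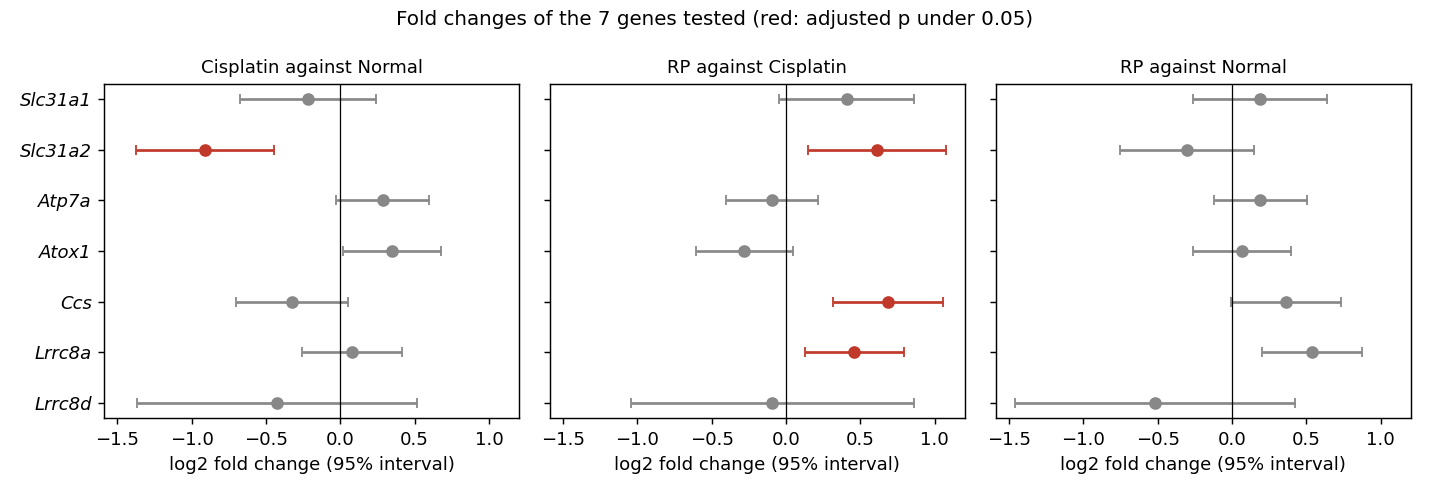
Log2 fold change of the 7 tested genes in each comparison, 1 panel a comparison, with 95% intervals from the edgeR fit; red points passed an adjusted p under 0.05. The called values are Slc31a2 at -0.91 in Cisplatin against Normal and Slc31a2, Ccs and Lrrc8a at 0.61, 0.69 and 0.46 in RP against Cisplatin.

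For each of the 7 genes, the closest patterns in log2 CPM over the 9 libraries were sought among 9078 tested genes that averaged 5 CPM or more. Left out of these were the other members and unnamed gene models (Gm, LOC or BC followed by digits, or names ending in Rik). Rnf157 (Pearson r = 0.98) and Palm (0.975) were closest to Slc31a2, Polr2a (0.945) and Ciao1 (0.942) to Atp7a, and Taf15 (0.963) and Trappc3 (0.946) to Atox1. Acvr2a (0.976) and Itpripl1 (0.975) were closest to Ccs, Ly6a (0.938) and Aldoart2 (0.924) to Lrrc8a, and Ndufaf7 (0.918) and Kbtbd4 (0.897) to Lrrc8d. The 9 points share groups and libraries, so these values are descriptions of likeness.

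Genes around the copper pathway were followed in 7 lists. Among all genes tested, 26.3% rose and 28.2% fell in Cisplatin against Normal. In RP against Cisplatin 24.6% rose and 24.2% fell. The copper-dependent enzymes moved most in number: of 11 tested members, out of 14 listed, 2 rose and 8 fell in Cisplatin against Normal (median -1.65), and 7 rose and 2 fell in RP against Cisplatin (median 0.99). Those that rose in Cisplatin were Sod1 and Lox, the lysyl oxidase that cross-links collagen, which went from 28.3 ± 8.76 to 54.9 ± 15.3 CPM (0.95 ± 0.25, adjusted p = 0.0054, edgeR). Loxl2, a further lysyl oxidase, fell from 26.0 ± 13.1 to 3.53 ± 1.12 CPM and Aoc3, an amine oxidase of vessel and fat cells, from 37.0 ± 21.5 to 5.62 ± 2.26 CPM. In RP they were at 15.3 ± 6.18 and 22.1 ± 3.22 CPM. The fall of Loxl2 and Aoc3 accompanied that of the fibroblast markers given above and of adipocyte markers, which summed to 189.9 to 1350 CPM in Normal, 43.1 to 209.1 CPM in Cisplatin and 769.3 to 1027 in RP, and its link to them was not tested. Lox was lower in RP than in Cisplatin by 0.86 (adjusted p = 0.011), a call lost without Cisplatin replicate 1 (0.0538). Pam, the copper enzyme that amidates peptide hormones, fell from 53.0 ± 3.65 to 15.6 ± 1.33 CPM in Cisplatin and stood at 31.5 ± 5.13 CPM in RP. Pam was 1 of the 2 list genes called in RP against Normal (-0.75, adjusted p = 0.0458), but the call did not hold when any 1 Normal library, Cisplatin replicate 1 or 2, or RP replicate 1 or 3 was left out (adjusted p = 0.0527 to 0.220), with library size as the only scaling (0.109) or with the compared groups alone (0.0557).

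The list of thiol and metallothionein genes joins the metallothioneins, which bind heavy metals, with genes that make or use glutathione. Of its 6 tested members (8 listed), 5 rose in Cisplatin (median 1.81), beside 26.3% of all genes. The same 5 fell in RP against Cisplatin (median -1.41), beside 24.2% of all genes. These were Mt1, Mt2, Gstp1 (a glutathione transferase), Gclm and Gclc. Gclm and Gclc encode the subunits of the enzyme that starts glutathione synthesis. Gclm went from 12.9 ± 2.63 to 74.1 ± 11.9 and then 17.0 ± 2.90 CPM in RP. The exception, Gss, which completes glutathione synthesis, was not called (0.65 ± 0.32 in Cisplatin against Normal, adjusted p = 0.0954). Mt2 was at 59.8 ± 16.4 CPM in Normal, 8171 ± 1113 in Cisplatin and 239.5 ± 149 in RP, and Mt1 at 104.9 ± 33.0, 11090 ± 1696 and 297.9 ± 144 CPM. The Cisplatin libraries were far above the others for both genes. Mt2 was also called in RP against Normal (2.0 ± 0.40, adjusted p = 0.0425), a call lost in 10 of 18 alternatives: with limma-voom (0.0679), the 5 CPM filter (0.0543), the compared groups alone (0.0642) and the replicate number as a block, and when Cisplatin replicate 1 or 2, Normal replicate 1 or 3, or RP replicate 1 or 3 was left out (0.0603 to 0.219). Mt1 was not called there (1.51 ± 0.34, adjusted p = 0.074) but was with DESeq2 (0.0189), with no filter (0.000316) and without RP replicate 2 (0.0035).

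Of 12 COMMD and CCC complex genes, which sort the copper ATPases between endosome and plasma membrane, 3 rose and 2 fell in Cisplatin (median 0.09). In RP against Cisplatin 2 rose and 2 fell (median -0.16). Of all genes, 54.5% and 48.8% were called in these comparisons, in either direction. Commd1, which takes part in copper export with ATP7B, fell from 44.6 ± 2.93 to 14.9 ± 0.937 CPM and stood at 43.7 ± 6.68 CPM in RP, having risen by 1.55 ± 0.15 against Cisplatin (adjusted p = 4.03e-06, edgeR). Commd10 was at 5.76 ± 1.73, 2.71 ± 0.600 and 6.87 ± 1.97 CPM in Normal, Cisplatin and RP. Its fall in Cisplatin (-1.10, adjusted p = 0.0149) was not called without Cisplatin replicate 2 (0.062) or Normal replicate 2 (0.0806). Commd6 and Commd4 rose in Cisplatin by 1.25 ± 0.23 and 1.09 ± 0.22 and fell in RP against Cisplatin by 1.16 and 0.63, the latter call being lost without Cisplatin replicate 3 or RP replicate 3 (adjusted p = 0.0931 to 0.118) and with library size as the only scaling (0.0782).

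Mitochondrial copper delivery, which supplies cytochrome c oxidase, had 3 of 8 genes risen and 2 fallen in Cisplatin (median 0.26). In RP against Cisplatin 2 had risen and 2 fallen (median -0.13). The shares of all genes called, in either direction, were 54.5% and 48.8%. Sco2 went from 11.5 ± 3.53 to 18.4 ± 2.13 and then 7.54 ± 1.55 CPM in RP, Sco1 from 6.33 ± 0.542 to 9.48 ± 1.14 and then 8.64 ± 1.04 CPM. Cox11 was at 32.2 ± 1.21, 23.7 ± 0.986 and 31.6 ± 3.18 CPM and Coa6 at 24.7 ± 3.79, 18.1 ± 0.956 and 24.1 ± 2.01 CPM. The fall of Sco2 in RP against Cisplatin, by 1.29 ± 0.24 on the log2 scale (adjusted p = 7.33e-04, edgeR), held in all 18 alternatives. In Cisplatin against Normal the changes were small and their calls often did not hold. With 1 library left out, the calls in Cisplatin against Normal were lost for Coa6 without any 1 Cisplatin library or Normal replicate 1 or 3 (adjusted p = 0.0539 to 0.150), for Sco1 without Cisplatin replicate 2 or 3 or Normal replicate 1 or 3 (0.0677 to 0.113), for Sco2 without Cisplatin replicate 3 or Normal replicate 1 or 2 (0.0618 to 0.111), and for Cox11 without Cisplatin replicate 2 or Normal replicate 3 (0.0508 to 0.0522). Other settings also ended calls there: the filter at 5 CPM in 3 libraries for Sco1 (0.0545), library size as the only scaling for Sco1 and Sco2 (0.0684 and 0.0514), and no filter for Sco1 and Coa6 (0.0706 and 0.0542). Called genes of the list numbered 3 with the 5 CPM filter, 2 with library size alone and 2 with no filter. These counts also cover Cox19, which was not followed by name through the alternatives. Cox19 rose in Cisplatin against Normal by 0.48 ± 0.19 (adjusted p = 0.0467, edgeR), with groups that overlapped. In RP against Cisplatin it differed by -0.79 ± 0.19 (adjusted p = 0.00387). Called genes of this list numbered 1 without Cisplatin replicate 3, 2 without Normal replicate 1 or 3, and 3 without Cisplatin replicate 2 or Normal replicate 2. In RP against Cisplatin, the Coa6 call was lost in 12 of 18 alternatives: without any 1 Cisplatin library, Normal replicate 1, or RP replicate 1 or 2 (adjusted p = 0.0652 to 0.129), with DESeq2 (0.0773), RLE scaling (0.0549), limma-voom (0.0513), no filter (0.0823), without Rn45s (0.052) and with the replicate number as a block. Cox11 was lost without Cisplatin replicate 2 or RP replicate 2 (0.0724 to 0.0925), and called genes numbered 2 without either of those libraries.

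Of 9 tested organic cation carriers and ABC exporters (11 listed), 2 rose and 3 fell in Cisplatin (median -0.43). In RP against Cisplatin 3 rose and 2 fell (median 0.66). Beside these counts stand 54.5% and 48.8% of all genes called, in either direction. Abcc1, an exporter of glutathione conjugates, was at 29.7 ± 3.55, 44.9 ± 8.12 and 30.0 ± 6.22 CPM in Normal, Cisplatin and RP, and its relative Abcc4 at 17.3 ± 0.848, 23.5 ± 1.28 and 14.4 ± 1.10 CPM. Abcb1a, a P-glycoprotein gene of the capillary wall, fell from 31.7 ± 1.02 to 13.5 ± 3.88 CPM (-1.24 ± 0.21, adjusted p = 2.76e-04, edgeR) and rose again to 24.1 ± 5.17 CPM in RP. Endothelial markers (Pecam1, Cdh5, Kdr, Cldn5) split: in Cisplatin against Normal Kdr fell (-1.09 ± 0.21, adjusted p = 7.53e-04), Cldn5 rose (1.92 ± 0.42, adjusted p = 0.00158) and the other 2 were not called, and in RP against Cisplatin Kdr rose (0.61) and Cldn5 fell (-1.86). Their sum was 167.4 to 208.1 CPM in Normal, 146.2 to 201.7 CPM in Cisplatin and 150.2 to 211.7 in RP, and their part in the Abcb1a values was not tested. Slc22a3, a carrier of organic cations, had 102 counts over Normal, 22 over Cisplatin and 84 over RP. Its fall in Cisplatin was lost without Normal replicate 2 (adjusted p = 0.0788) and its rise in RP without any 1 Cisplatin library or RP replicate 1 or 2 (0.0534 to 0.113). The rise of Abcc1 was lost without Cisplatin replicate 3 or Normal replicate 2 (0.0542 to 0.058), its fall in RP without Cisplatin replicate 3 or RP replicate 1 (0.076 to 0.0837), and the rise of Abcc4 without Cisplatin replicate 2 or 3 or Normal replicate 2 or 3 (0.0502 to 0.0656). Library size as the only scaling also ended the rise of Abcc4 (0.0593) and the fall of Abcc1 in RP (0.0616), no filter ended the rise of Abcc4 (0.0561), and limma-voom ended both calls of Slc22a3 (0.0591 and 0.086). Called genes of this list numbered 3 without Cisplatin replicate 3 and 2 without Normal replicate 2 in Cisplatin against Normal. In RP against Cisplatin they numbered 3 without Cisplatin replicate 3 or without RP replicate 1.

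STEAP proteins reduce copper and iron before uptake. Of 3 tested (4 listed) only Steap3, the endosomal reductase, was called: it was at 30.2 ± 5.54 CPM in Normal, 3.40 ± 0.783 in Cisplatin and 17.2 ± 2.68 in RP. Of all genes, 54.5% were called in Cisplatin against Normal and 48.8% in RP against Cisplatin. Steap3 fell by 3.13 ± 0.23 in Cisplatin (adjusted p = 2.38e-07, edgeR) and rose by 2.32 ± 0.23 in RP against Cisplatin (adjusted p = 4.46e-06). STEAP3 serves iron uptake in red cell precursors, and the erythroid markers given above were also lowest in Cisplatin, a link that was not tested. Normal replicate 1 had the lowest erythroid sum of its group, 4114 CPM, and the highest Steap3, 35.0 CPM. In RP against Normal all 4 erythroid markers fell, beside 0.319% of all genes. The Steap3 difference there, -0.82 ± 0.20, was not called by edgeR (adjusted p = 0.102), but was with DESeq2 (0.0268) and with no filter (0.0291).

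In RP against Normal, 0 of the genes of the mitochondrial, COMMD, exporter, STEAP and channel partner lists were called by edgeR. Those with an unadjusted p under 0.05 numbered 1 of 8, 1 of 12, 0 of 9, 1 of 3 and 0 of 1, beside 12.8% of all genes. Shares were larger among the copper-dependent enzymes, at 5 of 11, and the thiol and metallothionein genes, at 3 of 6. DESeq2 called 1 of the STEAP genes.

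**Figure D5:**
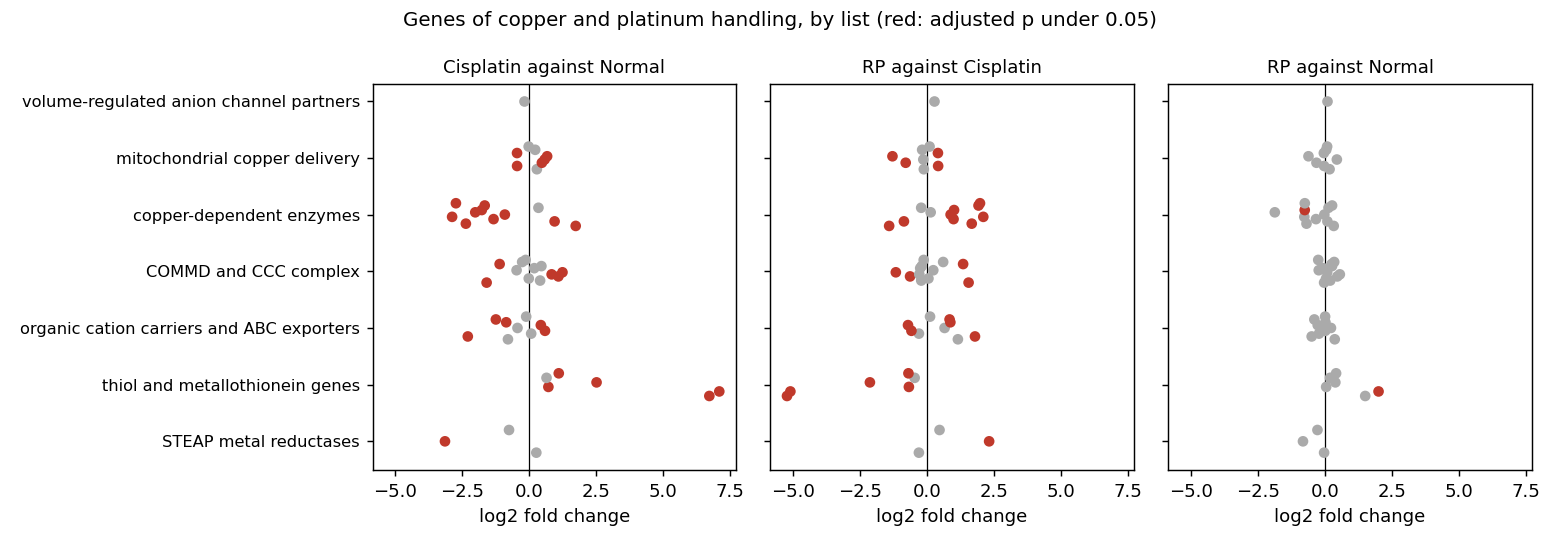
Log2 fold change of each tested gene of the 7 lists in the 3 comparisons, 1 point per gene; red points passed an adjusted p under 0.05. The metallothionein genes stand at 7.09 and 6.72 in Cisplatin against Normal, most copper-dependent enzymes are below 0 there, and in RP against Normal the red points are Pam at -0.75 and Mt2 at 2.0.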

How the data were processed

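QuantSeq 3′ RNA libraries were prepared from 500 ng of total RNA of each of 9 muscle samples. The authors deposited raw read counts per gene symbol for each sample. The submitters' processing notes name Bowtie2, edgeR and the mm10 build, with no versions or roles, and for the counting tool and its strand setting nothing is given in the sources used here. Here 79 rows sharing 35 symbols were summed to 23238 symbols. All 9 libraries were fitted together with edgeR 4.0.16 (R 4.3.3): filterByExpr by group, TMM scaling, the quasi-likelihood test, and Benjamini-Hochberg adjustment over 12859 genes, called at an adjusted p under 0.05. Total counts per library were 8196030 to 10678342. The ribosomal gene Rn45s took 7.38% to 12.8% of them. Replicates differed by more than sampling noise (chi-square per degree of freedom of 11.3 to 28.9), so no library was treated as a copy. Numbered replicates did not pair across groups (correlations of deviations -0.178 to 0.199).

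The genes named are the 8 members and those that follow. Of each list, the 2 called genes with the largest rise and the 2 with the largest fall in Cisplatin against Normal are named. Sod1 and the LRRC8 partners are named in any case. So are the 2 genes of highest Pearson r with each member on log2(CPM + 0.5), unnamed gene models left out. Pam, Cdc26, Cox19, Gclm, Gclc, Gss, Gstp1, Kdr and Cldn5 were added after their values were seen. The members, the 7 lists and the 11 marker lists were chosen with earlier results of these data known. Alternatives were RLE or library-size scaling, leaving out Rn45s, no filter or 5 CPM in 3 libraries, DESeq2 1.42.0, limma-voom (limma 3.58.1), the 2 compared groups alone, a replicate block, and leaving out each library. The SE of an edgeR log2 difference was derived from the test, as its size over the square root of the quasi-likelihood F. Intervals are at 95%, from the t distribution with that SE. Gene positions are from GENCODE M21 and promoter windows from RefSeq.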

Additional observations from a re-analysis of the deposited data

How the results depend on the processing

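The calls of Slc31a2 in Cisplatin against Normal (adjusted p = 0.0015 to 0.0122) and of Ccs in RP against Cisplatin held in all 18 alternatives. Called members in Cisplatin against Normal numbered 1 to 2 over the fits leaving out a library, 2 being Slc31a2 and Atox1 without Normal replicate 3. In RP against Cisplatin they numbered 1 to 3, with Ccs alone called without Cisplatin replicate 2 or 3. In RP against Normal 0 members were called in each of the 18. Of all genes, 65 were called in RP against Normal, 229 with DESeq2, 293 with no filter, and 22 to 116 when 1 library was left out. Library size as the only scaling moved the median of all genes in RP against Cisplatin from 0.07 to 0.21 and the share of called genes that rose from 50.5% to 60.2%. In RP against Normal that share went from 36.9% to 60.0%. With the replicate block, called members numbered 1, 3 and 0 in the 3 comparisons, as without it; calls of Sco1 in Cisplatin against Normal (adjusted p = 0.0531), Coa6 in RP against Cisplatin (0.0631) and Mt2 and Pam in RP against Normal (0.0636 and 0.0568) were lost, and a second STEAP gene was called in Cisplatin against Normal. The correlation of deviations between same-numbered libraries was -0.178 to 0.199, and a library correlated best with its own number in 7 of 18 cases.

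Signs turned for 36 of the values followed through the alternatives, none of them called. Leaving out 1 library put Lrrc8a in Cisplatin against Normal at -0.0434 to 0.2129 (below 0 without Cisplatin replicate 1), Lrrc8d in RP against Cisplatin at -0.4759 to 0.4579 (above 0 without Cisplatin replicate 2), and, in RP against Normal, Atox1 at -0.0286 to 0.179 (below 0 without Normal replicate 1 or RP replicate 2, at -0.0026) and Slc31a1 at -0.0231 to 0.3735 (below 0 without RP replicate 2). Lrrc8c ranged from -0.9404 to 0.184, -0.104 to 1.0162 and -0.2042 to 0.4554 in the 3 comparisons. For RP against Normal the ranges were -0.1117 to 0.1748 for Abcc1, -0.1399 to 0.0866 for Coa6, -0.1377 to 0.0818 for Commd1, -0.1898 to 0.2889 for Commd6, -0.1111 to 0.025 for Cox11, -0.1189 to 0.3163 for Lox and -0.9314 to 0.3901 for Slc22a3. In RP against Cisplatin, library size as the only scaling gave Atp7a 0.0569, Lrrc8d 0.0244 and Sco1 0.0092, and Lrrc8d was at 0.0659 with limma-voom and 0.0032 with the replicate block. The same scaling in RP against Normal gave Coa6 0.0344, Cox11 0.0457 and Commd1 0.0438, and Lrrc8c was at -0.0927 with limma-voom and -0.0028 with the replicate block. The causes were not tested. Counts were lowest for Atp7b and Lrrc8d, at 0 to 4 and 11 to 57 per library. Slc22a3 had no value in the alternatives whose filter removed it.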
